A study of Mus musculus with 2 samples.

Results

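Toll-like receptors and their adaptors were followed through the macrophages, monocytes and dendritic cells of mouse kidneys with aristolochic acid nephropathy, in which plant toxins damage the kidney tubules and cause chronic disease. The 10 genes were chosen by name, as the rows of Tlr2, Tlr3, Tlr4, Tlr7, Tlr9, Tlr13, Cd14, Ly96, Myd88 and Unc93b1, and all 10 were present in both single-cell count tables. The cells were CD45-positive kidney leukocytes of B6 mice labelled as AAN CKD at week 2, sorted after collagenase digestion and captured on a 3' Chromium platform. There every RNA molecule is tagged with a unique molecular identifier (UMI), so that counts are of molecules. The labels give 1 single-cell sample, which holds 2 hashed samples that were told apart by antibody-borne barcodes and captured in 1 library. The labels do not say that the hashed samples are separate animals, and the title names a single mouse and both week 1 and week 2. A Visium section from the same series was not analysed here, and the cells described here include none from a kidney without treatment.

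Toll-like receptors recognise conserved molecules of microbes and of damaged cells. Those at the cell surface bind lipoproteins (Tlr2) or lipopolysaccharide (Tlr4, with the co-receptors Cd14 and Ly96), whereas those in endosomes bind nucleic acids: double-stranded RNA (Tlr3), single-stranded RNA (Tlr7), bacterial ribosomal RNA (Tlr13) and DNA (Tlr9). Unc93b1 carries the endosomal receptors out of the endoplasmic reticulum, and Myd88 is the adaptor through which all of these receptors except Tlr3 signal.

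Where values come in pairs, the first belongs to hashed sample 1 and the second to hashed sample 2. The deposited tables held 3315 and 3700 barcodes with 20743037 and 25314154 UMIs, no barcode was shared between them, and 3089 and 3467 cells were kept, with medians of 5669 and 6568 UMIs. Cells were grouped without the 10 genes, and each class name stands for cells "like" that type, given from marker genes. Resident macrophages numbered 982 and 1430 cells and carried the complement gene C1qa at 6931 and 6731 UMIs per 1000000 (CPM), against 133 and 179 CPM in T cells. Other macrophages held C1qa as well, at 4078 and 4176 CPM in interferon-responding and 2481 and 3140 CPM in Ear2 macrophages. Ccr2, a listed classical monocyte marker, was at 447 and 573 CPM in resident macrophages. It was at 367 and 554 CPM in Arg1-type macrophages and at 800 and 1323 CPM in classical monocytes. Type 2 dendritic cells (182 and 305 cells) carried Cd209a, type 1 dendritic cells (44 and 67) Xcr1, and migratory dendritic cells (57 and 37) Ccr7. Cd209a stood at 374 and 639 CPM in type 2 cells, against 67.3 and 55.1 CPM in Ear2 macrophages. Of the 6 listed type 2 markers, 3 were raised in type 2 cells. Raised means 50 CPM or more and 2-fold or more over the median class, with 10 CPM added. All 4 listed Ear2 macrophage markers were raised in type 2 cells, but only 3 of the 4 in Ear2 macrophages. Mgl2 in type 2 cells, at 1926 and 2986 CPM, lay above the 1398 and 2184 CPM of Ear2 macrophages. Ear2 itself was at 1078 and 889 CPM in Ear2 macrophages and at 926 and 1208 CPM in patrolling monocytes. Classical monocytes (51 and 83 cells) held Chil3 at 5089 and 2502 CPM but Ly6c2, another of their markers, only at 23.2 and 49.4 CPM, below the 103 and 210 CPM in T cells. Patrolling monocytes held Chil3 too, at 3427 and 810 CPM. Their markers Ace (19.3 and 109 CPM) and Treml4 (30.9 and 91.3 CPM) were also found in the classical class, which may be mixed. In patrolling monocytes Ace was at 746 and 471 CPM and Treml4 at 565 and 483 CPM. In all, the 10 genes were described in 11 myeloid classes, with T cells (973 and 476 cells) as a measure of free RNA. Every level below is the UMIs of a gene summed over the cells of a class per hashed sample, in CPM, and intervals are exact 95% intervals that cover counting error only.

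**Figure D1:**
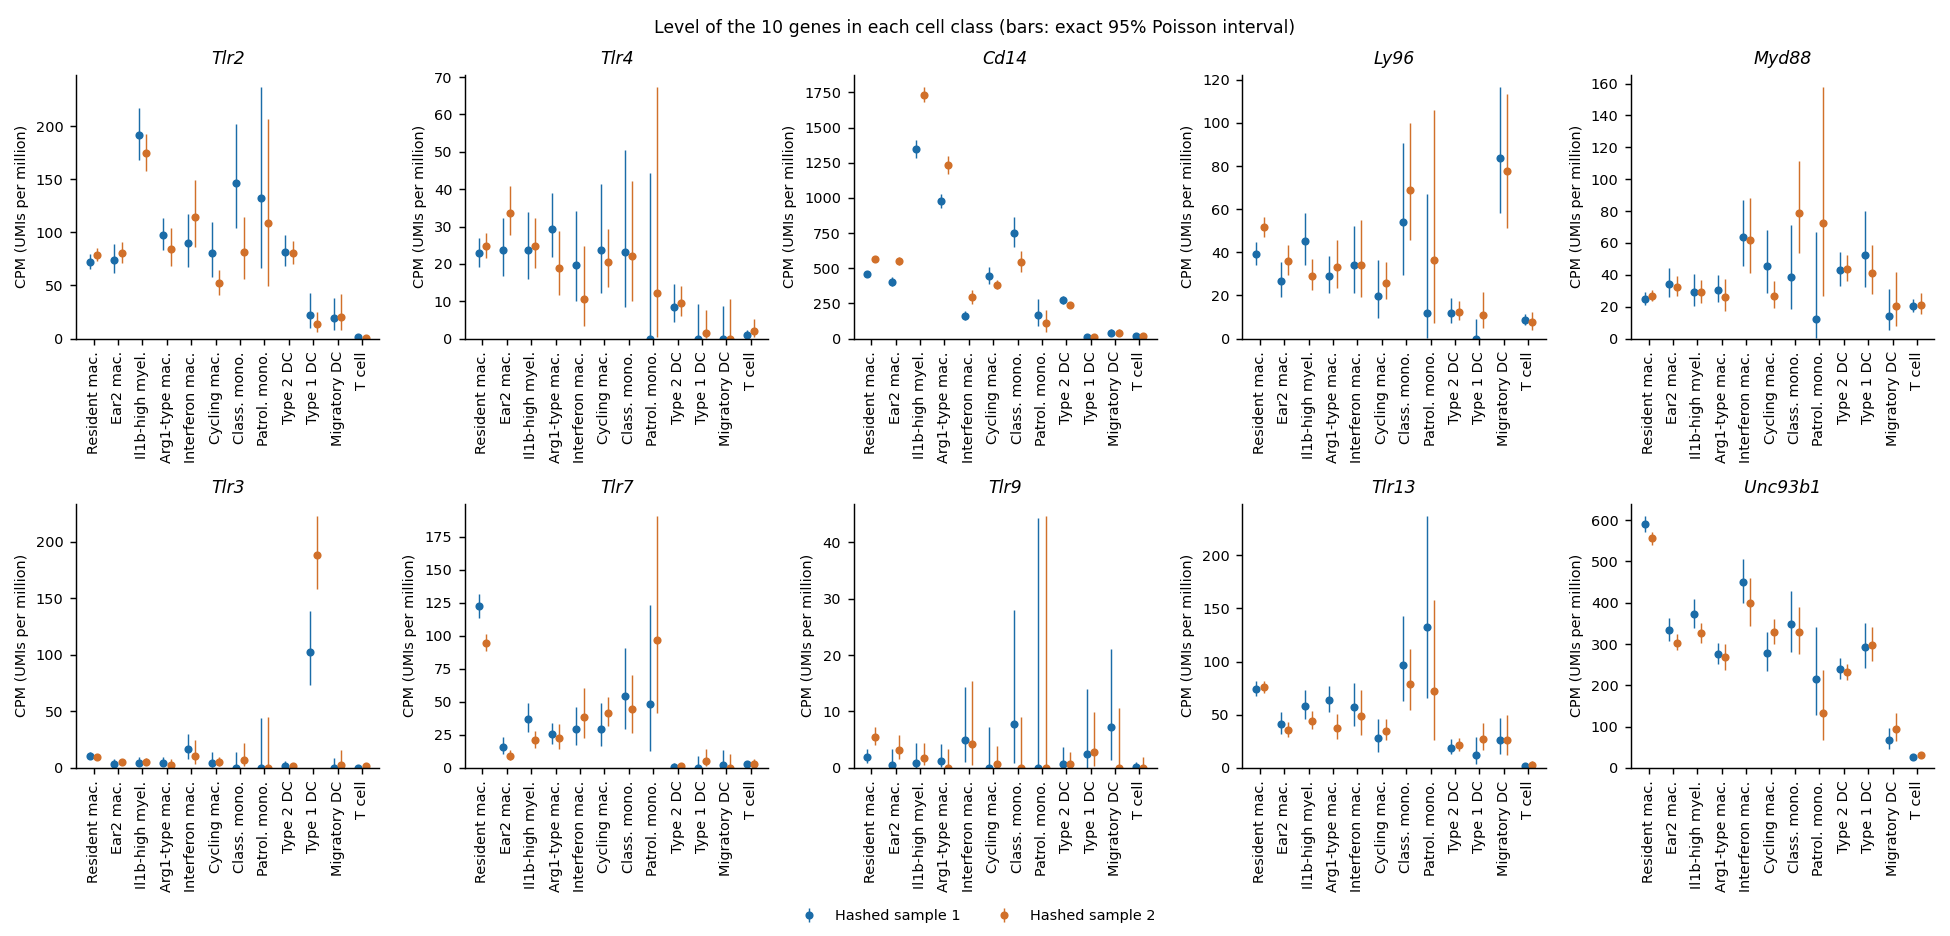
Level of each of the 10 genes (CPM, linear axis from 0) in 11 myeloid classes and T cells, with 1 point per hashed sample and its exact 95% Poisson interval. Tlr3 stood at 102 and 188 CPM in type 1 dendritic cells and Tlr2 and Cd14 were highest in Il1b-high myeloid cells, while the wide bars of the patrolling monocytes come from 83164 and 82757 UMIs in all.

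A pair of classes was compared on the log2 ratio of CPM with 10 CPM added to both, so that ratios of scarce genes come out too small. Genes entered a comparison (were measured) if either class held 20 CPM or more, in both hashed samples. A measured gene was counted as higher or lower if both hashed samples gave a difference of 1.5-fold or more in 1 direction. With 1 sample in the labels there is no test and no p-value. Of the 9 comparisons, 5 were planned and 4 (Cd163 against Ctsk state, Il1b-high, interferon-responding and migratory cells) were added because the values of these genes stood out, so that their counts are descriptions of values already seen.

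Stretches before the RefSeq start of genes whose class patterns stand apart below are shown for orientation: Myd88 (interferon-responding macrophages), Tlr3 (type 1 dendritic cells) and Tlr2 (Il1b-high cells). They come from a table of RefSeq promoters on GRCm38.p6, in which 5 of the 10 genes were matched, and were taken from the 250 bases before each RefSeq start, leaving out bases that GENCODE vM21 places in exons. All lie on the minus strand, at chr9:119340042-119340268, chr8:45410381-45410452 and chr3:83841768-83841858, and are written 5' to 3' on the gene's strand. The Tlr2 stretch lies outside the annotated gene. The others lie within it: 1 of 3 GENCODE transcripts of Myd88 and 5 of 9 of Tlr3 start further upstream, so that there the stretch is intronic. Capitals mark a match to AANNGAAA, an interferon regulatory factor half-site, on the gene's strand in Myd88 (38 to 31 bases before the start) and on the opposite strand in Tlr3 (59 to 52 bases before it), and to GGGNNTTCC (part of an NF-kappaB site, matching both strands in overlap) in Tlr2.
Myd88: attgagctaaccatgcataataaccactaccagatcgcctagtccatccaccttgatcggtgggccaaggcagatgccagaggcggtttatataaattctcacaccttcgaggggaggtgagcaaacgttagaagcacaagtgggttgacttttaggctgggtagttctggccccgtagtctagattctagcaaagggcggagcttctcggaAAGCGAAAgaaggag
Tlr3: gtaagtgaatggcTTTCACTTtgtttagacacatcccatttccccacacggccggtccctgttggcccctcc
Tlr2: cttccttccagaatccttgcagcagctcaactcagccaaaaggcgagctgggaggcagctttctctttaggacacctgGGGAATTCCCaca
The motifs were chosen after these sequences had been read, and both strands were searched. Over 32851 RefSeq windows of 250 bases, 21.3% held AANNGAAA and 4.98% GGGNNTTCC. A further motif that was searched, GAGGAAG, was held by 10.6% of the windows. It matched in the windows of Tlr13 and Tlr9, which are not shown. The window of Tlr2 also held 2 matches to AANNGAAA, of which 1 lies in the stretch shown and is not in capitals. A match is a description of the letters and shows neither binding nor a cause.

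Tlr3 was found mainly in type 1 dendritic cells, which take up dead cells and present their antigens to CD8 T cells. Its level in them was 102 CPM (41 UMIs) and 188 CPM (137 UMIs). In type 2 dendritic cells, which mainly prime CD4 T cells, it was 1.98 and 1.89 CPM, from 3 and 5 UMIs. The ratio was 51.7 (16.5 to 261) and 99.3 (41.6 to 311), and the hashed samples lay on the same side although they differed from each other. Resident macrophages held Tlr3 at 10.7 and 9.36 CPM and T cells at 0.203 and 1.51 CPM. In all other myeloid classes both values were at or under 16.3 CPM, so that no neighbours further down the order could be separated beyond the spread of the hashed samples except the resident macrophages from the Il1b-high cells. After each cell was thinned to 1000 UMIs, 6.98% (1.46 to 19.1) and 13.6% (6.43 to 24.3) of type 1 dendritic cells had a Tlr3 UMI, against 43.2% and 74.6% unthinned and 0% and 0.220% of thinned T cells.

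Of the 5 genes measured between type 1 and type 2 dendritic cells, Tlr3 was counted as higher in type 1 cells and Tlr2 and Cd14 as lower, against 7.03% (higher) and 10.9% (lower) of the 5134 genes measured. Tlr2 was at 22.5 and 13.7 CPM in type 1 cells and 81.8 and 80.7 CPM in type 2 cells, 3.64-fold (1.86 to 8.15) and 5.87-fold (3.13 to 12.4) lower. Cd14, which hands lipopolysaccharide to Tlr4, was at 12.5 and 12.4 CPM against 274 and 238 CPM. The type 1 level of Cd14 did not exceed the 18.3 and 21.6 CPM of T cells and reads as background. Myd88 (52.4 and 41.2 against 42.9 and 43.6 CPM) and Unc93b1 (292 and 298 against 240 and 231 CPM) were not counted, with ratios of 1.22 (0.710 to 2.03) and 0.946 (0.611 to 1.42) for Myd88. The 10 immediate-early and heat-shock genes that dissociation is known to induce summed to 2160 and 1399 CPM in type 1 and 4746 and 5423 CPM in type 2 cells, and their part in the Tlr2 and Cd14 values was not tested.

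Among other genes of the pathway, Tlr11, a profilin receptor that also depends on Unc93b1, was counted as higher in type 1 than in type 2 dendritic cells, at 34.9 and 49.4 against 1.32 and 1.14 CPM. Irf7, a transcription factor of the interferon response, was at 52.4 and 35.7 against 1.32 and 6.06 CPM. Of the 8 measured genes for endosomal receptors and their handling, 1 was counted as higher (Tlr11) and 4 as lower, all of them lysosomal proteases, with Ctss at 955 and 519 against 2092 and 1989 CPM.

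Among the 11 myeloid classes, Tlr7 was highest in resident macrophages, at 122 and 94.7 CPM. There it could not be separated from the 48.1 and 96.7 CPM of patrolling monocytes (4 and 8 UMIs). Classical monocytes held 54.1 and 44.4 CPM, and cycling, interferon-responding, Il1b-high and Arg1-type macrophages lay between 20.9 and 41.7 CPM. Ear2 macrophages held 16 and 9.23 CPM. The type 1, type 2 and migratory dendritic cells were at or under 5.49 CPM, in the range of T cells (3.04 and 3.02 CPM). Type 2 dendritic cells had 1 and 4 Tlr7 UMIs among 1516777 and 2640283. The ratio of resident macrophages to them was 185 (33.2 to 7334) and 62.5 (24.3 to 230).

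Of the 8 genes measured between resident macrophages and type 2 dendritic cells, 6 were counted as higher in resident macrophages and 0 as lower, against 13% (higher) and 7.84% (lower) of 5564 genes, 724 and 436 of them. They were Tlr4, Tlr7, Tlr13, Cd14, Ly96 and Unc93b1. Tlr13 was at 74.6 and 75.6 against 19.1 and 21.6 CPM, a ratio of 3.90 (2.68 to 5.90) and 3.5 (2.67 to 4.68). Tlr4 was at 22.8 and 24.8 against 8.57 and 9.47 CPM, and Ly96, which binds lipopolysaccharide as a partner of Tlr4, at 39.2 and 51.6 against 11.9 and 12.5 CPM. Tlr2, the receptor for lipoproteins, was not counted, at 72.5 and 78.9 against 81.8 and 80.7 CPM (ratio 0.887, 0.724 to 1.09, and 0.978, 0.838 to 1.15). Myd88 lay in the other direction, at 24.7 and 26.8 against 42.9 and 43.6 CPM, 1.74-fold (1.27 to 2.34) and 1.62-fold (1.29 to 2.04) lower without the added 10 CPM, and was not counted with it. With TMM scaling (an alternative that balances the classes), 7 genes were counted and Myd88 was among them as lower. The median log2 ratio of all genes moved from 0.15 to 0.01, and the split to 579 higher and 571 lower. Under a 2-fold rule Tlr4 and Cd14 were not counted, and with a minimum of 50 CPM Tlr4 and Ly96 were not.

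The rest of the pathway in this comparison included Tlr8, another endosomal RNA receptor, at 32.5 and 32.6 against 2.64 and 4.92 CPM, and Tlr1, a partner of Tlr2, at 32.3 and 39.2 against 5.93 and 6.44 CPM. Lgmn, a protease that processes endosomal receptors, stood at 1409 and 1344 against 93.0 and 81.8 CPM. In all, 4 of 8 measured genes of the endosomal list and 3 of 4 of the surface list were counted as higher and none as lower. Of the inhibitors, Tnfaip3 (21.4 and 16.6 against 107 and 83.3 CPM) and Nfkbia (293 and 249 against 661 and 552 CPM) were counted as lower in resident macrophages. The NF-kappaB genes Rel and Nfkb1 and the factor Irf5 were also counted as lower, 3 of the 7 measured transcription factors. The dissociation genes were lower in resident macrophages for 8 of 10, and their part in these values was not tested.

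Resident macrophages and classical monocytes differed less. Tlr7 (ratio 2.26, 1.34 to 4.15, and 2.13, 1.34 to 3.61) and Unc93b1 (590 and 556 against 348 and 328 CPM, ratio 1.70 and 1.69) were counted as higher in resident macrophages, 2 of 8 measured and 0 lower, against 10% (higher) and 7.84% (lower) of 5560 genes. Neither passed a 2-fold rule. Tlr13 was at 96.6 and 79.0 CPM in classical monocytes, against 74.6 and 75.6 CPM, and was not counted. The hashed samples disagreed for Tlr2 (147 and 81.4 CPM in monocytes) and for Cd14 (754 and 543 CPM). Myd88 was at 24.7 and 26.8 CPM in resident macrophages and 38.6 and 79.0 CPM in monocytes (10 and 32 UMIs), a ratio of 0.639 (0.338 to 1.36) and 0.340 (0.234 to 0.508). It was not counted, but was counted as lower with 1 CPM added in place of 10, with cells gated one by one and with equal weight for each cell. Of the pathway genes, Tlr8, Tlr1 and Lgmn were again counted as higher in resident macrophages, and 6 of 8 transcription factors as lower, among them Irf5 at 117 and 110.5 against 313 and 252 CPM. Fos and Jun, which are among these 6, also belong to the dissociation genes. All 10 dissociation genes were lower in resident macrophages (summed 1993 and 1980 against 6654 and 7413 CPM), and their part was not tested.

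**Figure D2:**
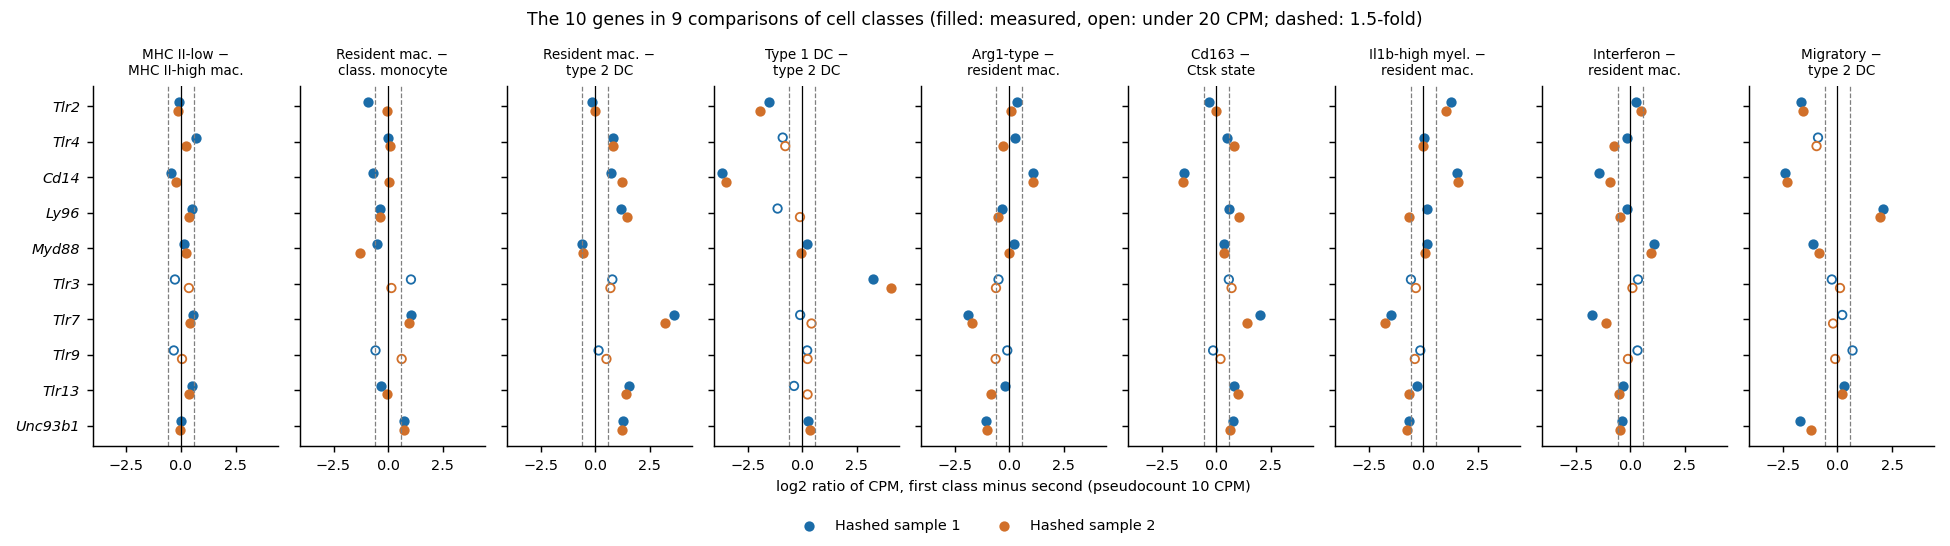
log2 ratio of CPM (first class minus second, 10 CPM added to both) of the 10 genes in 9 comparisons, with 1 point per hashed sample, open where the gene was under 20 CPM and with dashed lines at 1.5-fold. Tlr7 lay to the right for resident macrophages against type 2 dendritic cells (3.63 and 3.18), whereas none of the 10 genes was counted between MHC II-low and MHC II-high macrophages.

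The design of the series names macrophages without MHC class II, which displays peptides to CD4 T cells. Resident macrophages were divided at 50.9 UMIs per 10000, summed over the MHC II genes H2-Ab1, H2-Aa and H2-Eb1, the lowest point between the upper modes of the pooled cells, with 9% of cells within 1.5-fold of it. Of 8 measured genes, 0 were counted as higher or lower in MHC II-low cells (223 and 658 cells) against MHC II-high cells (759 and 772), beside 1.32% (higher) and 0.86% (lower) of 5466 genes, 72 and 47 of them. Tlr7 was at 163 and 110 CPM in the low and 108 and 79.4 CPM in the high cells, a ratio of 1.52 (1.29 to 1.77) and 1.39 (1.21 to 1.59). Tlr13 (98.1 and 86.8 against 66.2 and 64.6 CPM) and Ly96 (53.3 and 59.4 against 34.2 and 44.0 CPM) were shifted the same way by less than the rule asks in at least 1 hashed sample. Tlr4 was at 35.6 and 27.4 against 18.3 and 22.2 CPM, a ratio of 1.95 (1.35 to 2.79) and 1.23 (0.938 to 1.63), past 1.5-fold in hashed sample 1 alone. Cd14 lay the other way, at 358 and 523 against 492 and 609 CPM, and Unc93b1 was at 585 and 550 against 592 and 561 CPM, with a ratio of 0.987 (0.914 to 1.07) and 0.981 (0.927 to 1.04).

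The low and high cells were spread unevenly over the macrophage states described below. Within the Fcgr4, Pf4, Ctsk and Cd163 states taken one at a time, none of the 10 genes was counted, and Tlr7 in the Cd163 state was at 231 and 152 CPM in low against 188 and 161 CPM in high cells. Of the other pathway genes, the proteases Ctsb (2481 and 2731 against 1475 and 1663 CPM) and Ctsl (373 and 345 against 231 and 183 CPM) were counted as higher in MHC II-low cells and none as lower. Dissociation genes summed to 1262 and 1551 CPM in low and 2252 and 2405 CPM in high cells, lower for 3 of 10, and their part was not tested. The count of 0 was unchanged with 5 other positions of the dividing level, chosen after seeing the data, and was 2 (Tlr7 and Tlr13, higher) with cells gated one by one. TMM scaling moved the median of all genes from 0.12 to -0.01 and the split to 46 higher and 70 lower.

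The resident macrophages fell into 5 clusters, named here by leading genes: Cd163 (170 and 252 cells, with Lyve1 and F13a1), Ctsk (227 and 337, with Mmp9 and Acp5), Pf4 (123 and 442), Fcgr4 (341 and 237) and a shallow cluster (121 and 162, median 1513 UMIs). In the Ctsk cluster 6 of the 9 resident macrophage markers were raised, and in each of the others 9 of 9. All 4 markers listed for the Fcgr4 state were also raised in the Ctsk and Pf4 clusters. Likewise, all 4 markers listed for the Pf4 state were raised in the Ctsk, Cd163 and shallow clusters, and 3 of 4 in the Fcgr4 cluster. Tlr7 differed most between the Cd163 and the Ctsk state, at 213 and 154 against 45.2 and 51.2 CPM (4.71-fold, 3.58 to 6.27, and 3-fold, 2.39 to 3.78). Pf4 (113 and 90.5 CPM) and Fcgr4 cells (129 and 86.1 CPM) lay between them. The shallow cluster held Tlr7 at 146 and 154 CPM, as high as Cd163 cells in hashed sample 2. Between Cd163 and Ctsk cells, Tlr13 was at 96.5 and 101 against 51.3 and 45.2 CPM. Unc93b1 was at 704 and 694 against 407 and 452 CPM. These levels were not particular to Cd163 cells. The shallow cluster held Unc93b1 at 772 and 753 CPM and Tlr13 at 88.7 and 105 CPM, and Pf4 cells held Tlr13 at 101 and 76.5 CPM. Cd14 had the opposite order, at 222 and 276 CPM in Cd163 cells and 643 and 818 CPM in Ctsk cells, 2.89-fold (2.52 to 3.33) and 2.97-fold (2.68 to 3.29) lower.

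**Figure D3:**
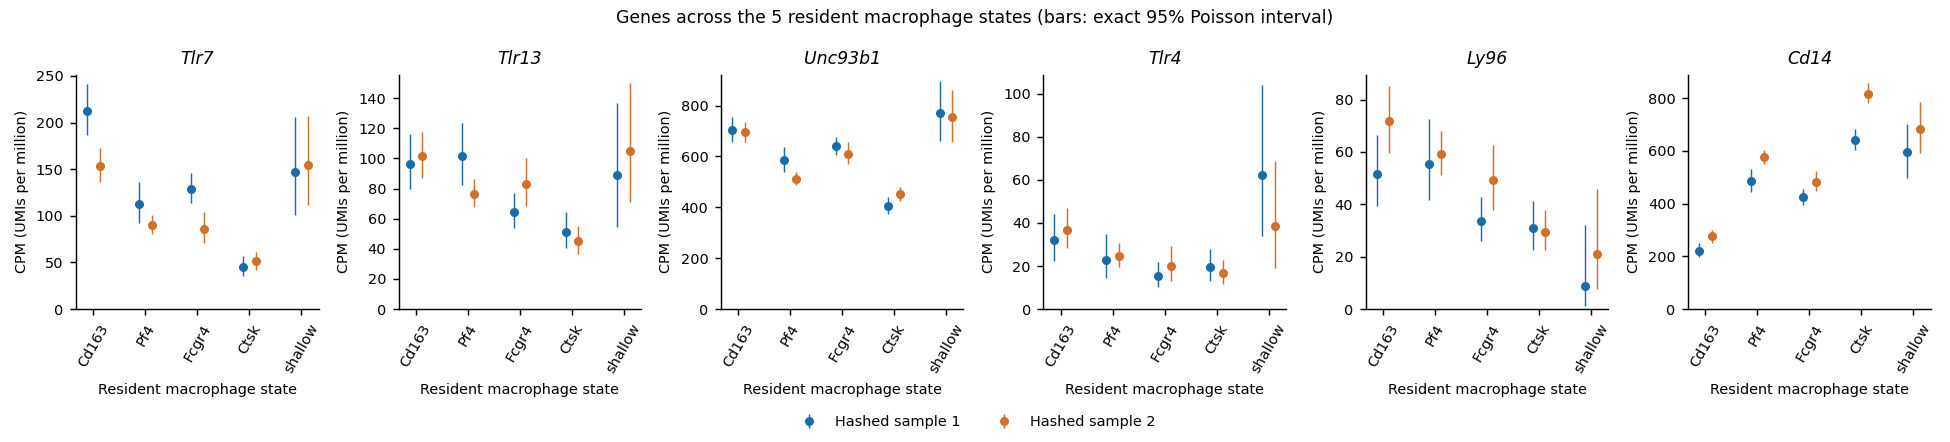
Level (CPM, linear axis from 0) of 6 genes in the 5 resident macrophage clusters, with 1 point per hashed sample and its exact 95% Poisson interval. Tlr7 lay between 154 and 213 CPM in the Cd163 state and between 45.2 and 51.2 CPM in the Ctsk state, and Cd14 had the opposite order.

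Between these states 4 genes (Tlr7, Tlr13, Ly96 and Unc93b1) were counted as higher in Cd163 cells and Cd14 as lower, of 8 measured, against 10.6% (higher) and 3.69% (lower) of 5556 genes, 588 and 205 of them. TMM scaling moved the median of all genes from 0.16 to -0.03 and the split to 334 higher and 393 lower, and Ly96 and Unc93b1 were then not counted. Tlr7, Tlr13 and Cd14 were counted on both scales. In the endosomal list Tlr8, Lgmn, Ctsb and Ctsl were counted as higher in Cd163 cells, 4 of 8 measured, with Ctsb at 2973 and 3543 against 926 and 1042 CPM. Dissociation genes summed to 943 and 967 CPM in Cd163 and 2864 and 2874 CPM in Ctsk cells, lower for 8 of 10, and their part was not tested. The Cd163 state was not recovered by 2 other clusterings of the same cells, and with cells gated one by one Tlr7 was counted, Tlr13, Cd14, Ly96 and Unc93b1 were not, and Myd88 (higher) and Tlr2 (lower) were added.

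Il1b-high myeloid cells (158 and 261 cells), named from Il1b, Cxcl2, Tnfsf9 and Nlrp3, had the highest Tlr2 and Cd14 of all classes. Il1b itself was at 1776 and 2153 CPM in them and higher in classical monocytes, at 2747 and 3408 CPM. Cxcl2 was highest in the Il1b-high cells among the 11 myeloid classes, at 1481 and 2987 CPM. Tlr2 was at 191 and 175 CPM, where resident macrophages held 72.5 and 78.9 CPM, a ratio of 2.64-fold (2.24 to 3.10) and 2.21-fold (1.95 to 2.51). Cd14 was at 1346 and 1733 against 457 and 566 CPM. Tlr7 was lower, at 37.1 and 20.9 CPM (3.29-fold, 2.45 to 4.52, and 4.53-fold, 3.39 to 6.19), and so was Unc93b1, at 373 and 326 CPM. Of 8 measured genes 2 were counted each way, against 5.4% (higher) and 4.93% (lower) of 5521 genes. Without the Cd163-state cluster among the resident macrophages, Unc93b1 was not counted.

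Tlr4 in these cells was at 23.7 and 24.8 CPM, close to the 22.8 and 24.8 CPM of resident macrophages (ratio 1.04, 0.675 to 1.56, and 1.00, 0.734 to 1.34). Both counted inhibitors were higher: Tnfaip3, which ends NF-kappaB signalling, was at 155 and 179 against 21.4 and 16.6 CPM, and Nfkbia at 977 and 1198 against 293 and 249 CPM. Dissociation genes summed to 9089 and 8544 CPM, higher for 8 of 10, and their part in the Tlr2 and Cd14 values was not tested. After thinning to 1000 UMIs, 64.3% (56.3 to 71.8) and 68.2% (62.2 to 73.8) of Il1b-high cells had a Cd14 UMI, against 34.4% and 38.0% of resident macrophages and 2.65% and 2.20% of T cells (unthinned, 96.2% and 97.3%, 74.0% and 80.2%, and 8.43% and 8.40%).

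**Figure D4:**
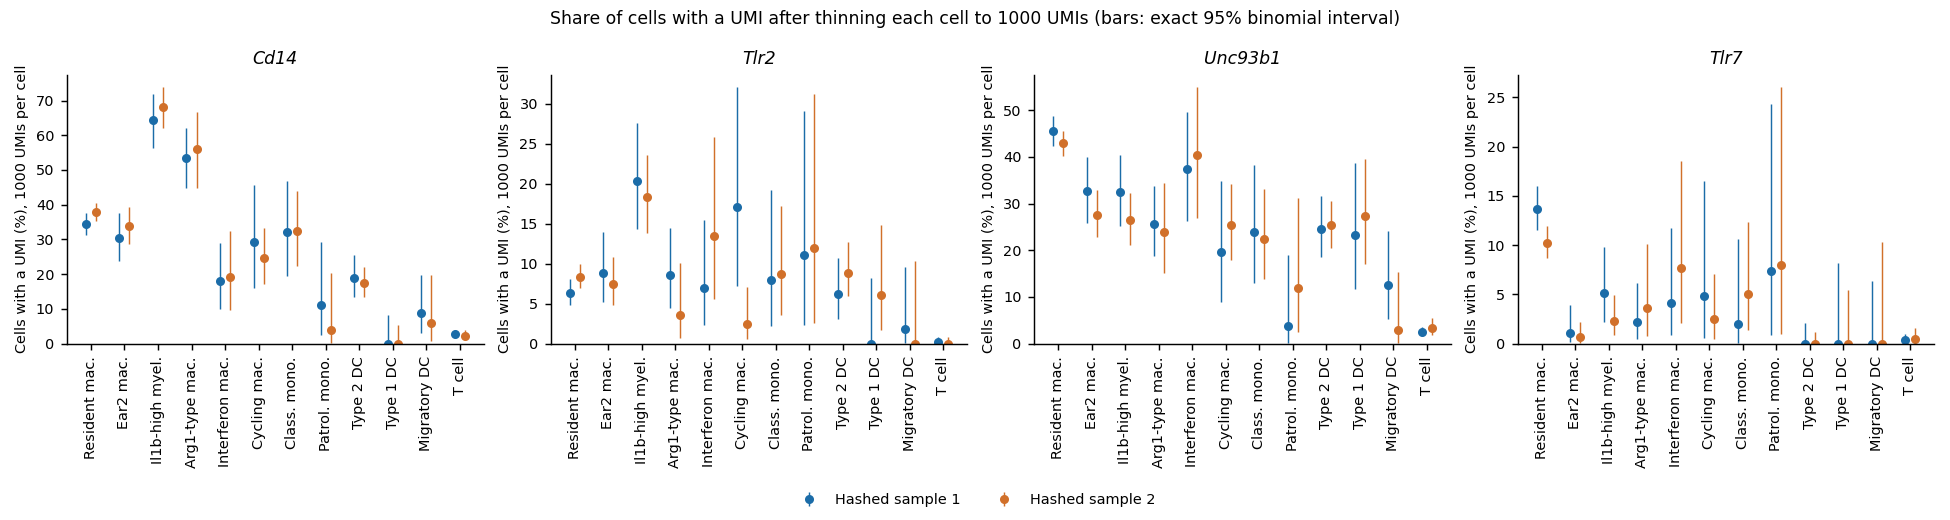
Share of cells with a UMI of Cd14, Tlr2, Unc93b1 or Tlr7 (percent, from 0) after each cell was thinned to 1000 UMIs, with 1 point per hashed sample and its exact 95% binomial interval. Cd14 was found in 64.3% and 68.2% of Il1b-high cells, 2.65% and 2.20% of T cells and 0% of type 1 dendritic cells.

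Arg1-type macrophages (140 and 84 cells), which carry the arginase and lipid-handling genes Arg1, Mmp12 and Lpl, shared the high Cd14 of the Il1b-high cells but not their Tlr2. They also held Cxcl2 at 1124 and 2050 CPM and Il1b at 615 and 1195 CPM. Arg1 was at 817 and 693 CPM in them and at 1011 and 41.0 CPM in cycling macrophages. Cd14 was at 977 and 1232 CPM, 2.14-fold (2.01 to 2.27) and 2.18-fold (2.05 to 2.31) above resident macrophages, and Tlr2 at 97.2 and 84.7 CPM was not counted. Tlr7 (25.3 and 22.5 CPM, 4.82-fold and 4.2-fold lower) and Unc93b1 (276 and 268 CPM, 2.14-fold and 2.08-fold lower) were counted as lower, so that 1 gene was higher and 2 were lower of 8 measured, against 7.82% (higher) and 11.7% (lower) of 5566 genes. Cd36, a lipid scavenger receptor that works with Tlr2, was at 427 and 416 against 29.4 and 39.8 CPM, and Ly86, the partner of Cd180, at 186 and 268 against 752 and 779 CPM. Dissociation genes summed to 3429 and 4302 against 1993 and 1980 CPM in resident macrophages, higher for 5 of 10 and lower for 1. Their part was not tested.

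Among the 11 myeloid classes, Myd88 was highest in interferon-responding macrophages (72 and 52 cells), at 63.6 and 61.6 CPM. That was 2.58-fold (1.76 to 3.70) and 2.29-fold (1.5 to 3.38) above the 24.7 and 26.8 CPM of resident macrophages. Classical monocytes at 38.6 and 79.0 CPM could not be separated from the interferon-responding cells. T cells held 20.7 and 21.1 CPM, so that the resident level was little above that of lymphocytes. Tlr7 (29.4 and 38.2 CPM) and Cd14 (160 and 295 CPM) were counted as lower in interferon-responding cells, 1 higher and 2 lower of 8 measured, against 6.96% (higher) and 6.49% (lower) of 5547 genes. Irf7 was at 173 and 198 against 9.50 and 10.5 CPM. Dissociation genes summed to 2407 and 3648 against 1993 and 1980 CPM, higher for 3 of 10, and their part was not tested. With cells gated one by one, neither Myd88 nor Tlr7 was counted.

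Migratory dendritic cells, mature cells that travel to lymph nodes by way of Ccr7, stood apart from type 2 dendritic cells in most of the genes measured. Ly96 was higher, at 83.9 and 77.9 against 11.9 and 12.5 CPM (7.07-fold, 3.90 to 13.3, and 6.23-fold, 3.61 to 10.7), the highest level of any class. Its partner Tlr4 had 0 UMIs in both hashed samples, where 3 UMIs would make 7.19 and 8.66 CPM, and type 2 cells held 8.57 and 9.47 CPM. The intervals of the ratio reached 1.19 and 1.21, so that a difference was not detectable within counting error in either hashed sample. Tlr4 was under the minimum level, and without that minimum the fold rule counted it as lower. Tlr2 (19.2 and 20.2 CPM), Cd14 (43.1 and 40.4 CPM), Myd88 (14.4 and 20.2 CPM, 6 and 7 UMIs) and Unc93b1 (67.1 and 95.2 CPM) were counted as lower, 1 higher and 4 lower of 6 measured, against 11.3% (higher) and 16.8% (lower) of 5136 genes. Myd88 was not counted with a minimum of 50 CPM, with a 2-fold rule or with equal weight for each cell. The NF-kappaB gene Rel was at 647 and 684 against 234 and 209 CPM. Dissociation genes were lower in migratory cells for 8 of 10, and their part was not tested.

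Tlr9 was at or under 7.73 CPM in every myeloid class and hashed sample and was not measured in any comparison. Its largest number of UMIs was 48, in the resident macrophages of hashed sample 2 (5.41 CPM), against 11 UMIs (1.90 CPM) in hashed sample 1. Tlr4 was highest in Ear2 macrophages, at 23.6 and 33.8 CPM, which overlapped the Il1b-high, Arg1-type and resident macrophages.

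Across 22 points, the 11 myeloid classes in 2 hashed samples, the gene most like Tlr3 among 3974 candidates was Xcr1, with a Pearson r of 0.94 on log2 (CPM + 10). Xcr1 is also a marker from which the type 1 class was named. It was at no more than 3.3 CPM in the other myeloid classes, so that this r rests largely on the type 1 points. Tlr7 was most like the macrophage gene Adgre1 (0.94), Cd14 most like Clec4a2 (0.93) and then the chemokine Ccl2 (0.91), Unc93b1 most like the nucleotide receptor P2ry6 (0.92), Tlr4 most like Timp2 (0.91) and Tlr2 most like Cd300lf (0.90). Tlr13 (0.89 with Mgst1), Ly96 (0.82 with Arl4c), Myd88 (0.78 with Mndal) and Tlr9 (0.66 with Casp8ap2) had weaker neighbours. Among the 10 genes the most alike pairs were Cd14 and Tlr4 (0.85) and Tlr13 and Tlr7 (0.83), and the least alike were Cd14 and Tlr3 (-0.56). These points share 1 library, and small classes such as the patrolling monocytes weigh as much as large ones.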

How the data were processed

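CD45-positive kidney cells were measured by single-cell RNA-seq in 1 sample of 2 hashed samples. The values the authors deposited are raw UMI counts per gene and cell, without normalization. Per the file headers Cell Ranger 6.1.1 wrote them, whereas version 6.0, Seurat 4.3.0 and the mm10 build stand in the submitters' processing notes. Human kidneys and mesenchymal stem cells, named in the protocol and in a label, were disregarded, since all gene identifiers are mouse.

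A cell was kept if it had 200 genes, 500 UMIs and no more than 10% mitochondrial UMIs, which left out 414 barcodes. Scrublet removed 40 doublets and hashtags 5 (0.682%). The remaining 6556 cells were clustered with scanpy 1.11.5 and leidenalg 0.10.2 (2000 variable genes, 30 components, 15 neighbours, resolution 1), without the 10 genes, other pathway genes, MHC class II and mitochondrial genes and genes in fewer than 5 cells. Classes were then named from marker lists. TMM factors came from edgeR 4.0.16, and the fold rule was tested on simulated data.

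The genes, lists and comparisons were chosen with earlier results of these data known. Several settings were set after output had been seen. The whole-data clustering was run first without the minimum of 5 cells per gene, and the version with it was adopted, because it separated more macrophage clusters, after levels of the 10 genes in the first had been printed. The monocyte cluster was divided at resolution 0.8 after 0.4 had not separated patrolling cells. The map from clusters to classes, the bandwidth of 0.12 behind the MHC II level, the thresholds of the per-cell gates, the motifs and 4 of the 9 comparisons were also set then. All 10 genes are named. Other pathway genes named are among those counted, at most 4 per list and comparison, and the likeness rule names the closest genes. The 9 alternatives listed at the outset and 9 added later are described in the closing section. Because PCR copies share a UMI, UMIs are molecules, but intervals cover counting error only.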

Additional observations from a re-analysis of the deposited data

How the results depend on the processing

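The 9 alternatives first listed were TMM scaling, a minimum of 50 CPM, no minimum, a pseudocount of 1 CPM, a 2-fold rule, a stricter cell filter (at least 1000 UMIs, at most 5% mitochondrial), doublets kept, cells gated one by one on marker UMIs and equal weight for each cell. Another 9 were chosen after seeing the data: the 10 genes and pathway genes kept in the clustering, the clustering without the gene filter that was run first, leaving out the shallow or the Cd163-state cluster, and 5 other MHC II levels. The 4 added comparisons were put through the same alternatives. For Cd163 against Ctsk state, 5 genes were counted, against 3 with TMM scaling, 2 with the 2-fold rule, 3 with the stricter filter and 3 with gated cells. Of the 5, gated cells kept Tlr7 only, Ly96 turned to a mean log2 ratio of -0.68, and Tlr2 (-0.71) and Myd88 (2.03) were added. The gate thresholds were set after class levels had been seen, and the causes were not tested. Neither other clustering recovered the Cd163 state, so that this comparison could not be made in them. The 2-fold rule left 0 of 2 genes for resident macrophages against classical monocytes and 1 of 3 for interferon-responding cells, where gated cells also gave 1. Gated cells gave 2 instead of 0 for MHC II-low against MHC II-high. All other counts stayed within 1.5 times under the alternatives that gave a value. In the first clustering the 26 calls that could be made were all kept, and Tlr13 and Ly96 were added as lower in Il1b-high cells. A level of 20 CPM in both hashed samples was reached by 68 pairs of gene and class, and by 66 in the first clustering and 70 with TMM scaling. Gated cells gave no value there, since not all classes had a gate, and gated classes were small (21 and 13 Arg1-type cells). No paired analysis was possible because there is 1 single-cell sample. Classes with few UMIs, such as the patrolling monocytes, limit what can be seen of Tlr4, Tlr9 and Ly96.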

Other observations

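Several small classes entered no comparison. The 8 plasmacytoid dendritic cells, a cell type known for nucleic acid sensing, held 1 and 6 UMIs of Tlr7 (59.0 and 187 CPM). They also held 9 and 18 UMIs of Unc93b1 (531 and 562 CPM) and 0 and 1 UMIs of Tlr9. The 47 B cells held Unc93b1 at 220 and 318 CPM from 11 and 14 UMIs, 0 UMIs of Tlr9 and 0 and 1 of Tlr7. Neutrophils, with 11 and 20 cells, held Cd14 at 880 and 825 CPM from 16 and 25 UMIs, beside a dissociation sum of 16988 and 16695 CPM whose part was not tested.

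Droplets with proximal tubule markers held Cd14 at 277 and 289 CPM, where T cells held 18.3 and 21.6 CPM. Unc93b1 in these droplets was at 209 and 281 CPM, compared with 26.0 and 30.7 CPM in T cells. These droplets also carried the 9 resident macrophage markers at a sum of 17837 and 19087 CPM (63980 and 52975 CPM in resident macrophages, 1246 and 1716 CPM in T cells), so that the values are not levels of tubule cells alone. The shallow resident macrophage cluster held Tlr3 at 31.1 and 24.5 CPM from 7 and 7 UMIs, against 10.7 and 9.36 CPM in all resident macrophages.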
